A study of Mus musculus with 8 samples.

Results

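Interferon-stimulated genes were followed in mouse liver as a list of 36 genes, given by name, that interferons are known to induce. All 36 were found by symbol among the 13774 genes of one table of normalised read counts and among the 11773 genes of a second table. The genes were taken by symbol, and the rule uses no measured value, but the list was chosen with earlier results of these data known. It holds 4 transcription factors, 4 cytosolic RNA sensors or their regulator, 16 antiviral effectors, 9 gamma-type GTPases and 3 components of peptide loading. The first 3 of these groups without Irf1 are called type I antiviral genes below, 23 in number.

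The libraries were made from liver RNA of C57BL/6 mice that had all been fed a 42% high-fat diet for 8 weeks, so that no group on another diet is part of these comparisons. In the first table, mice homozygous for a Ube3a transgene that overexpress this ubiquitin ligase (TG) stood beside wild-type mice (WT). In the second, mice with 1 knockout and 1 wild-type allele of Ube3a (het) stood beside another WT pair. Each of the 4 groups held 2 libraries, and the 2 tables had been normalised separately, so each mutant was compared with the WT pair of its own table. The promoter of the transgene, the number of transgenic lines, the age and sex of the mice, and whether 2 libraries of a group stand for different animals are not given in the labels used here. The p-values then measure only the spread between these libraries, which may be technical.

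Interferons are cytokines of antiviral defence. Type I interferons act through a receptor on nearly all cells and the complex ISGF3, of which STAT2 and IRF9 are subunits, and this complex binds the interferon-stimulated response element (ISRE) of its target genes. Interferon gamma, made mainly by T and NK cells, acts through another receptor and the gamma-activated site (GAS), with IRF1 as an early target that induces further genes such as the guanylate-binding proteins. In liver, hepatocytes, Kupffer cells (the resident macrophages) and sinusoidal endothelial cells all respond to interferons.

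These elements can be read in the promoters of the genes described here. A promoter entry in RefSeq (GRCm38.p6) was found for 29 of the 36 genes, covering 250 bases before to 50 bases after each annotated start. Usp18, Dhx58, Iigp1, Gbp6, Parp14, Parp9 and Tap2 had no entry. The ISRE core was searched as GAAANNGAAA and the GAS as TTCNNNGAA on both strands. In the stretches shown, no GAS shares a base with an ISRE core. In Bst2 a GAS beginning 136 bases before the start runs into an ISRE core beginning 130 bases before it. An ISRE core lay in the window of 16 of 29 genes (55.2%), beside 3.99% of all 27025 genes with a promoter entry. A GAS lay in 10 of 29 (34.5%), beside 9.55% of all genes. By group, the ISRE core was present in 6 of 7 gamma-type GTPases and 7 of 13 antiviral effectors. It was present in 2 of 3 RNA sensors and their regulator, 1 of 4 transcription factors (Stat2) and 0 of 2 peptide loading genes. The GAS was present in 3 of 7 gamma-type GTPases and in a similar share of antiviral effectors, 6 of 13. It was present in 0 of 3 RNA sensors and their regulator, 1 of 4 transcription factors (Irf1) and 0 of 2 peptide loading genes. A match describes letters in this window and was not tested as a binding site. The stretches below end at the start of transcription of 6 genes picked as examples, which do not stand for their groups. They are written 5′ to 3′ along the gene's strand with the matches in capitals.
Isg15, chr4:156200819-156200908, − strand: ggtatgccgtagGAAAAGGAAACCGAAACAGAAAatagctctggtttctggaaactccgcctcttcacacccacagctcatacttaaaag
Ifit3, chr19:34583369-34583528, + strand: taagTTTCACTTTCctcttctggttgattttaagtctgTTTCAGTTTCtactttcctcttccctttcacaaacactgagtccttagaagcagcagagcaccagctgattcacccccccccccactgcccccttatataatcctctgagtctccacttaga
Rsad2, chr12:26456453-26456577, − strand: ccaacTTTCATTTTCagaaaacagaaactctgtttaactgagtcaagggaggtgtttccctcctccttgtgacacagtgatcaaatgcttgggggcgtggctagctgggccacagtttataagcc
Irf1, chr11:53769914-53770013, + strand: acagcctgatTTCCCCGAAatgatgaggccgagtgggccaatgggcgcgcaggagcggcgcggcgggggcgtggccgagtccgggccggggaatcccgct
Irgm2, chr11:58214887-58214976, + strand: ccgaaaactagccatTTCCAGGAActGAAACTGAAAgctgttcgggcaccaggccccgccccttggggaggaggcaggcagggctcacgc
Igtp, chr11:58199496-58199555, + strand: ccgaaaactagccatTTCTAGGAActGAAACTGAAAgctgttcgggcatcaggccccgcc
Isg15, Ifit3 and Rsad2 are antiviral effectors and show the ISRE core in different forms. In Isg15, 3 overlapping matches begin 78, 72 and 66 bases before the start. Ifit3 had 2 separate matches on the opposite strand, beginning 156 and 122 bases before the start. Rsad2 had 1 match, on the opposite strand, beginning 120 bases before the start. Irf1 had a GAS, beginning 90 bases before the first of its 2 annotated starts, and no ISRE core in either window. Irgm2 and Igtp, neighbouring GTPase genes, each had a GAS followed by an ISRE core. These elements began 75 and 64 bases before the start in Irgm2 and 45 and 34 bases before it in Igtp. The bases printed for Igtp are nearly the same as those of Irgm2.

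The reads estimated from the values were between 44193275 and 47928229 per library in the TG table and between 13171145 and 17748088 in the het table, so that low genes had fewer reads in the latter. Ube3a was measured as a check of the labels: 1187 and 1359 in WT and 5991 and 5938 in TG, and 369 and 409 in WT and 301 and 279.5 in het. Both TG libraries lay above and both het libraries below their WT pair. Ube3a itself did not pass the test used below (limma, adjusted p under 0.05) in either mutant. Its log2 fold change was 2.23 in TG (limma adjusted p = 0.0586) and −0.42 in het (limma adjusted p = 0.129). The difference of its effects passed in a joint fit of both tables (limma adjusted p = 0.00157). A gene that does not pass is therefore not shown to be unchanged. The 6 hepatocyte markers were abundant in every library. Albumin (Alb) lay between 978950.5 and 3574942 normalised reads over both tables, whose scales differ. Of the 6 markers, 5 lay above WT and 1 below in TG (median log2 fold change 0.17). In het 2 lay above and 4 below (median −0.06), and none was called in either mutant. No gene of the list was at 0 in any library.

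Per kilobase of exon, the levels of the 36 genes spanned a wide range in the WT pair of the TG table, with a median of 251 normalised reads per kb. Bst2 (tetherin, which holds budding virus particles at the cell surface) had the highest level, 11682 ± 621 (SD, n = 2), followed by the GTPase Iigp1 at 2004 ± 1.77, the GTPase Igtp at 1369 ± 117 and the peptide loading factor Tapbp (tapasin) at 1309.5 ± 152. The order of Igtp and Tapbp was not separated by their spread. Ifi44 had the lowest level, 39.3 ± 16.4. The WT libraries of the het table had the same genes at the ends, with Bst2 at 5190.0 ± 422 and Ifi44 at 18.6 ± 7.23. Levels are not compared across the 2 tables, which have different scales.

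In TG liver, 27 of the 36 genes had a lower mean than in WT and 9 a higher one, and no gene passed the test (limma, adjusted p under 0.05). Of the 23 type I antiviral genes, 20 lay below WT (median log2 fold change −0.18). Without WT replicate 2 their median was −0.02, with 10 above and 13 below. The antiviral effectors made up most of the lower side, with 15 of 16 below WT, while the GTPases were divided, with 4 above and 5 below. The median log2 fold change was −0.14 over the list and 0.00 over all 13774 genes. With limma no gene of the whole table was called (0%). At an unadjusted p under 0.05, 1 of the 36 was left, Ifit3, beside 9.12% of all genes. On recovered reads, edgeR's quasi-likelihood test called 0 of the 36, beside 0% of all genes, and DESeq2 called 0, beside 1.38% of all genes. Each had 1 of the 36 at an unadjusted p under 0.05, where their shares over all genes were not computed. Both TG libraries lay below both WT libraries in 13 of the 36 (36.1%), beside 21.6% of all genes, and above them in 4 (11.1%), beside 21.8% of all genes. The 13 were Dhx58, Ifih1, Isg15, Ifit1, Ifit2, Ifit3, Rsad2, Usp18, Parp9, Bst2, Irgm1, Irgm2 and Gbp6, and the 4 were Ddx58, Parp14, Ifi47 and Iigp1. The lower median rested in part on single libraries. It was −0.016 without WT replicate 2, with 17 genes above and 19 below, −0.05 without TG replicate 1, and −0.22 without WT replicate 1. In whole-tissue RNA, fewer cells of a type and less RNA per cell cannot be told apart.

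In het liver, 28 of the 36 genes had a lower mean than in WT and 8 a higher one, and again none passed the test, beside 1.44% of all genes called. Here the GTPases (8 of 9 below WT) and peptide loading (3 of 3 below) lay on the lower side along with 13 of 16 antiviral effectors. Of the 23 type I antiviral genes, 16 lay below WT (median log2 fold change −0.06). Without WT replicate 2 their median was 0.07, with 16 above and 7 below. The median was −0.13 over the list of 36 and −0.00 over all 11773 genes. At an unadjusted p under 0.05, 6 of the 36 were left (16.7%), all lower than WT: Irf1, Ddx58, Xaf1, Ifi47, Iigp1 and Tap2. The share over all genes was 14.7% with both directions counted. By direction, 719 of all 11773 genes were lower and 1010 higher at this threshold. EdgeR called 0 of the 36, beside 0.739% of all genes called, and DESeq2 called 0, beside 2.45% of all genes called. EdgeR had 6 and DESeq2 4 of the 36 at an unadjusted p under 0.05, where their shares over all genes were not computed. Both het libraries lay below both WT libraries in 7 of the 36 (19.4%), these 6 and Ifi35, beside 23.7% of all genes, and above them in none, beside 24.3% of all genes. The direction of the median turned with a single library. Without WT replicate 2 it was 0.07, with 23 genes above and 13 below, and without WT replicate 1 it was −0.34, with 34 below.

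**Figure D1:**
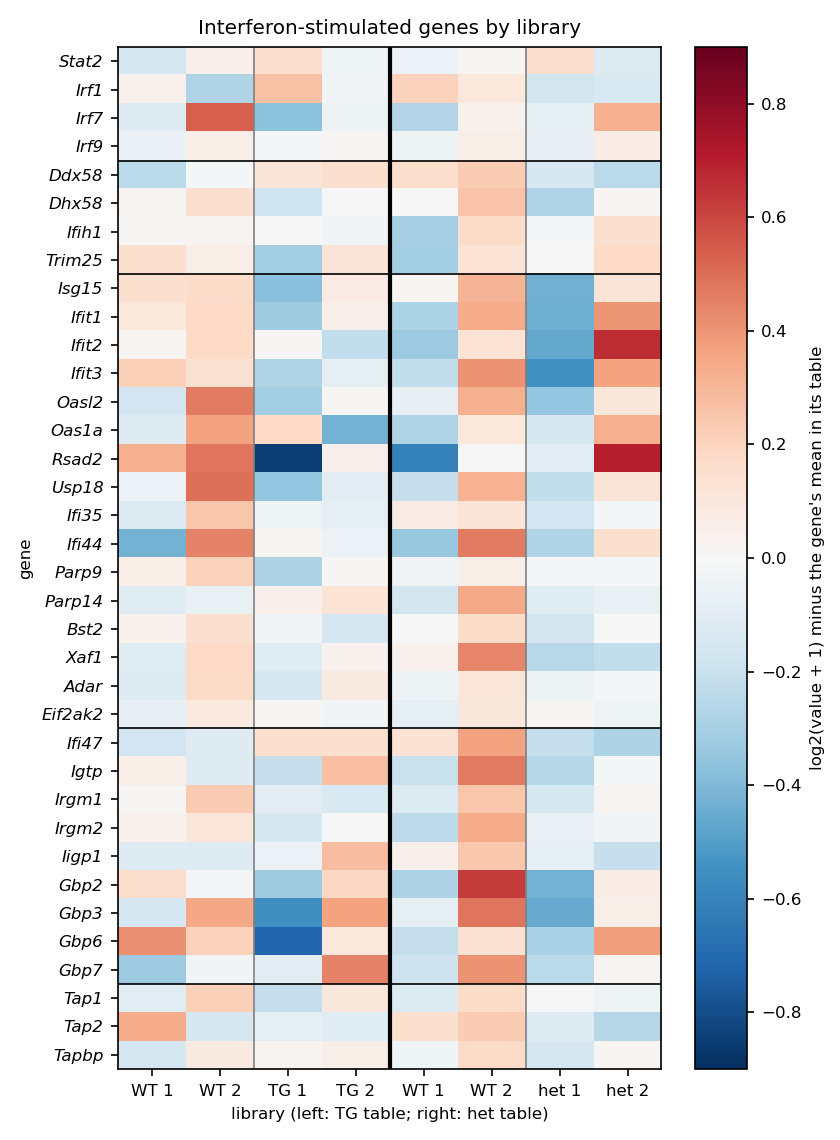
Heat map of log2(value + 1) of the 36 genes (rows, in blocks of transcription factors, RNA sensors, antiviral effectors, GTPases and peptide loading) in the 8 libraries (columns), each gene centred on its mean within its table. WT library 2 of the het table is above WT library 1 in 35 of 36 genes, and the lowest cell is Rsad2 in TG library 1.

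Among the transcription factors, the subunits of ISGF3 differed little between genotypes. Stat2 had 3070 and 3539 in WT and 3819 and 3344 in TG, and 1036 and 1087 in WT and 1199 and 983 in het, in normalised read counts. Irf9 had 1544 and 1682 in WT and 1599 and 1619.7 in TG, and 687 and 736 in WT and 676 and 742 in het. The libraries of the groups overlapped for both genes in both tables. For Irf9 the log2 fold changes were −0.00 in TG (95% interval −0.30 to 0.29) and −0.01 in het (−0.23 to 0.22). These intervals leave room for a change of about the size seen in other genes of the list. Irf7, which drives the amplification of type I interferon, had 1412 and 2221 in WT and 1185 and 1482 in TG, so that one WT library stood well above the other 3 (log2 fold change −0.42, SE 0.26). In the het table it had 726 and 895 in WT and 819.6 and 1088 in het, with the groups overlapping. Irf1 (ENSMUSG00000018899, chromosome 11, 53770014 to 53778374, + strand, GRCm38) had 1743 and 1407 in WT and 2036 and 1669.8 in TG, overlapping, with a log2 fold change of 0.24 (SE 0.17). In the other table it had 753 and 693 in WT and 580.0 and 591 in het, with both het libraries below both WT libraries (log2 fold change −0.30, SE 0.10, limma adjusted p = 0.194).

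The RNA sensors RIG-I, encoded by Ddx58, and MDA5, encoded by Ifih1, detect viral RNA in the cytosol, LGP2 (Dhx58) modulates them, and Trim25 is a ubiquitin ligase that activates RIG-I. Ddx58 (ENSMUSG00000040296, chromosome 4, 40203773 to 40239828, − strand) was the sensor whose groups did not overlap in either table. It had 1304 and 1519.7 in WT and 1672 and 1705 in TG, with both TG libraries above WT (log2 fold change 0.26, SE 0.13, limma adjusted p = 0.593). It had 529 and 556 in WT and 428 and 401 in het, with both het libraries below WT (log2 fold change −0.39, SE 0.10, limma adjusted p = 0.116). Dhx58 had 645 and 701 in WT and 559 and 636 in TG, and 259 and 311 in WT and 215 and 263 in het. Trim25 had 4836 and 4561 in WT and 3521 and 4747 in TG, and 1575 and 2113 in WT and 1947 and 2206 in het. For Dhx58 the TG libraries lay below WT by a narrow margin and the het libraries overlapped WT, while Trim25 overlapped in both tables. The log2 fold change of Ifih1 was −0.03 in TG and 0.14 in het.

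The antiviral effectors include the ubiquitin-like modifier ISG15 and USP18, the protease that removes it and restrains the interferon receptor. The IFIT proteins bind viral RNA, and RSAD2 (viperin) makes a nucleotide that stops viral RNA synthesis. Isg15 had 447 and 455 in WT and 312 and 426 in TG, and 202 and 247 in WT and 147 and 216 in het. Usp18 had 340 and 499 in WT and 278 and 329.5 in TG, and 241 and 346 in WT and 239 and 301 in het. TG libraries of both genes lay below WT, Usp18 with a WT pair that was itself far apart, and the het libraries overlapped WT. The log2 fold changes of Isg15 were −0.31 in TG (SE 0.19) and −0.32 in het (SE 0.20), and those of Usp18 were −0.44 and −0.10.

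Ifit3 (ENSMUSG00000074896, chromosome 19, 34583531 to 34588731, + strand) had 984 and 933 in WT and 705 and 800.3 in TG, or 958 ± 36.3 against 752 ± 67.7 (SD, n = 2 each). Both TG libraries were lower than both WT libraries, with a log2 fold change of −0.35 (SE 0.13, limma adjusted p = 0.541). In the het table it had 420.3 and 647 in WT and 334 and 629 in het, and the difference between libraries of one group was larger than that between groups. Ifit1 and Ifit2 had log2 fold changes of −0.27 and −0.21 in TG, with no overlap, and −0.05 and 0.20 in het, with overlap.

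Rsad2 (ENSMUSG00000020641, chromosome 12, 26442746 to 26456452, − strand) had the lowest log2 fold change of the 36 genes in TG and the highest in het. It had 295 and 330.4 in WT and 131 and 244 in TG, so that both TG libraries lay below WT but stood far apart from each other (log2 fold change −0.80, SE 0.33, limma adjusted p = 0.555). In the het table it had 115 and 176 in WT and 164 and 286 in het, where the groups overlapped and the upper value belonged to 1 het library (log2 fold change 0.60, SE 0.36). Xaf1, a pro-apoptotic factor, had 143 and 189.7 in WT and 117 and 119.6 in het, with both het libraries close together and below WT (log2 fold change −0.47, limma adjusted p = 0.261). In the TG table Xaf1 had 317 and 387 in WT and 316 and 349.6 in TG and overlapped.

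Bst2, the effector with the highest level, had 10152 and 10945 in WT and 9769 and 8913 in TG, both TG libraries being below WT (log2 fold change −0.18, SE 0.15), and 4417 and 4956 in WT and 3942 and 4444 in het, with overlap. Ifi35 had 1328 and 1717 in WT and 1409 and 1363 in TG, overlapping, and 525 and 539 in WT and 443 and 492 in het, where both het libraries were lower (log2 fold change −0.19, SE 0.10). Parp14, an ADP-ribosyltransferase, was the 1 effector of 16 with a positive log2 fold change in TG (0.17), and it was at −0.17 in het. The other effectors, Oasl2, Oas1a, Ifi44, Parp9, Adar and Eif2ak2, ranged from −0.29 to −0.01 in TG and from −0.25 to 0.18 in het. Over the 16 effectors the median was −0.23 in TG and −0.12 in het. Without WT replicate 2 the medians were −0.06 in TG, with 7 above and 9 below, and 0.07 in het, with 11 above and 5 below. Reads of near-identical copies could be divided between genes in this family, as for the Ifit and Oas genes, and their assignment is not given in the sources used here.

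**Figure D2:**
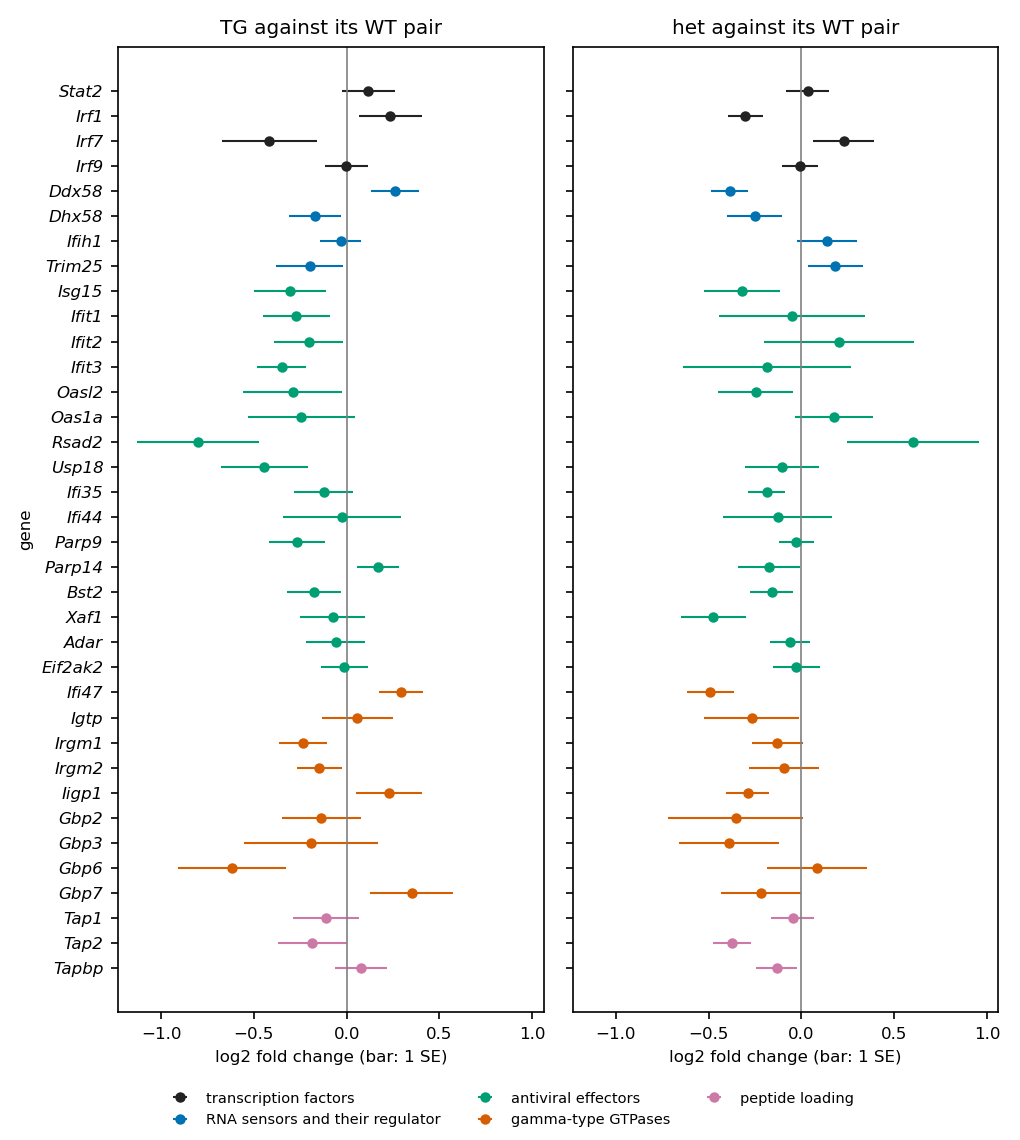
Log2 fold change of each of the 36 genes (points, bars 1 SE, n = 2 libraries a group) in TG and in het against the WT pair of the same table, coloured by group of genes. In TG 15 of 16 antiviral effectors lie left of 0, and in het 8 of 9 GTPases do, while no gene passes the test in either panel.

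The gamma-type GTPases comprise the immunity-related GTPases (Ifi47, Igtp, Irgm1, Irgm2, Iigp1) and the guanylate-binding proteins (Gbp2, Gbp3, Gbp6, Gbp7), which attack the membranes around intracellular pathogens and are strongly induced by interferon gamma. Ifi47 (ENSMUSG00000078920, chromosome 11, 49076587 to 49096974, + strand) had 710 and 739.6 in WT and 887 and 887 in TG, that is 725 ± 21.0 against 887 ± 0.457 (SD, n = 2 each). Both TG libraries lay above WT, with a log2 fold change of 0.29 (SE 0.12, limma adjusted p = 0.555). It had 283 and 331 in WT and 222 and 213 in het, or 307 ± 34.2 against 218 ± 6.76. Both het libraries lay below WT, with a log2 fold change of −0.49 (SE 0.13, limma adjusted p = 0.118), the lowest of the 36 genes. No ISRE core or GAS match was found in the Ifi47 window, which says only that these letters are not there.

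Iigp1 had 11679 and 11664 in WT and 12207 and 15323 in TG, where a single TG library stood well above the rest and the other was close to WT (log2 fold change 0.23, SE 0.18). It had 4405 and 5050.3 in WT and 4033 and 3693 in het, with both het libraries below WT (log2 fold change −0.29, SE 0.12, limma adjusted p = 0.298). Igtp had 2935 and 2601 in WT and 2435 and 3394 in TG, and 860.0 and 1369.7 in WT and 827 and 981 in het, overlapping in both. Irgm1 and Irgm2 had log2 fold changes of −0.24 and −0.15 in TG, with both TG libraries below WT, and −0.13 and −0.09 in het, with overlap. The annotated spans of Igtp (chromosome 11, 58199556 to 58207591) and Irgm2 (chromosome 11, 58199618 to 58222782) overlap on the same strand, so reads from the shared stretch are uncertain for both.

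The guanylate-binding proteins stood on both sides of WT in TG. Gbp6 was the lowest, at −0.62 (SE 0.29), with 1332 and 1157 in WT and 609 and 1071 in TG, so that 1 TG library carried most of the difference. Gbp7 was the highest gene of the whole list, at 0.35 (SE 0.22), with 1098 and 1351 in WT and 1284 and 1879 in TG, and its groups overlapped. In het, Gbp2, Gbp3 and Gbp7 had log2 fold changes of −0.35, −0.39 and −0.22, and Gbp6 0.08, all with overlap. Over the 9 GTPases the median was −0.14 in TG and −0.27 in het. Without TG replicate 1 the TG median was 0.27, with 6 above and 3 below, and without WT replicate 2 the het median was 0.07, with 6 above and 3 below. Genes of this family are similar in sequence, and reads could be divided between them. The values in every library of Gbp6 and Gbp7 were chosen for print after they were seen.

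Peptide loading, through which interferons raise the display of antigen on MHC class I, was represented by the subunits of the peptide transporter, Tap1 and Tap2, and by Tapbp. Tap2 (ENSMUSG00000024339, chromosome 17, 34203527 to 34216321, + strand) had 525 and 558 in WT and 438 and 397 in het, with both het libraries lower (log2 fold change −0.38, SE 0.10, limma adjusted p = 0.136). In the TG table it had 2291 and 1642 in WT and 1724 and 1689 in TG, with 1 WT library above the other 3. Tapbp had 4361 and 5141 in WT and 4948 and 5042 in TG, and 1633 and 1885 in WT and 1508 and 1697 in het, overlapping in both. The log2 fold change of Tap1 was −0.11 in TG and −0.05 in het.

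A joint fit of the 11754 genes in both tables tested whether the effect in TG differed from that in het. None of the 36 genes passed (limma, adjusted p under 0.05), beside 0.434% of all genes. EdgeR also called 0 of the 36, beside 0.34% of all genes, and DESeq2 0, beside 3.16% of all genes. At an unadjusted p under 0.05, 5 of 36 were left (13.9%) with limma, beside 16.7% of all genes. EdgeR and DESeq2 each left 5 as well, and their shares over all genes at this threshold were not computed. The smallest adjusted p belonged to Ifi47, whose effects differed by 0.78 on the log2 scale (SE 0.16, 95% interval 0.41 to 1.16, limma adjusted p = 0.0976). Ddx58 differed by 0.65 (95% interval 0.30 to 1.00, limma adjusted p = 0.123), Irf1 by 0.54 (adjusted p = 0.239) and Iigp1 by 0.52 (adjusted p = 0.271). Rsad2 differed the other way, by −1.40 (95% interval −2.70 to −0.11, limma adjusted p = 0.271). The median difference over the list was 0.01, as over all genes.

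By direction of the means, 20 of the 36 genes were below WT in both mutants, 1 was above in both (Stat2), 8 were above in TG and below in het, and 7 were below in TG and above in het. In 3 genes (Ddx58, Ifi47 and Iigp1; 8.33%) both TG libraries lay above and both het libraries below their WT pairs, beside 7.23% of all genes. In 0 genes was the reverse seen, beside 7.86% of all genes. For 15 of the 36 (41.7%) the libraries overlapped in both tables, beside 29.3% of all genes. The groups were free of overlap in both tables, in any direction, for those 3 genes alone of the 36 (8.33%), beside 22.3% of all genes.

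**Figure D3:**
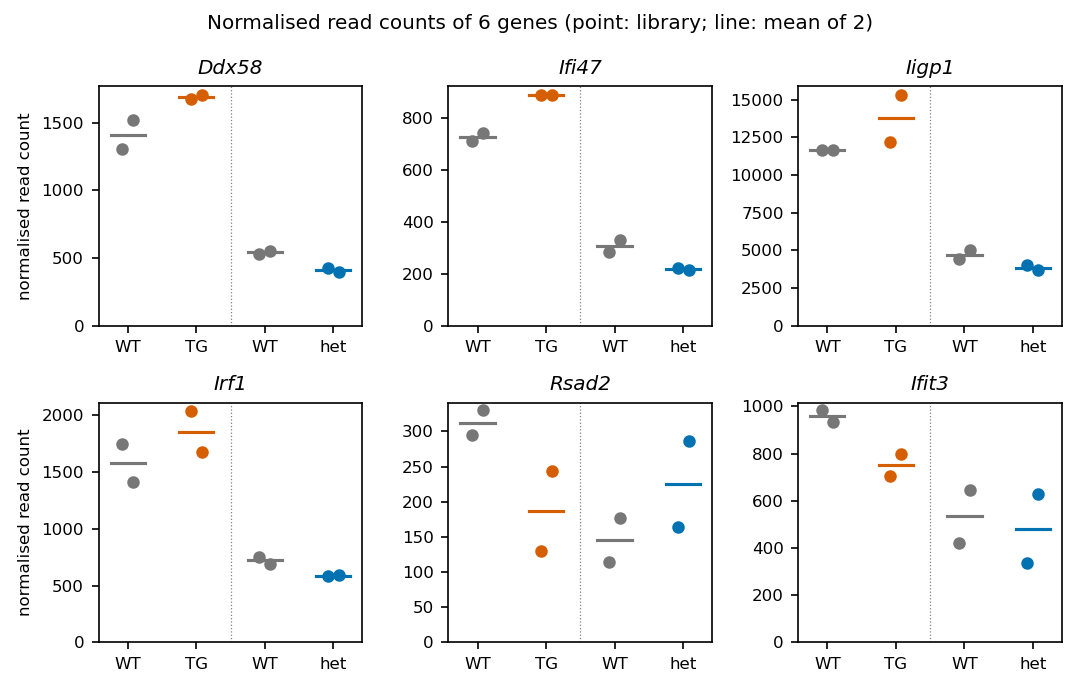
Normalised read counts of 6 genes in each library (points) with the mean of the 2 libraries of a group (lines), TG table left and het table right of the dotted line in each panel. Ddx58, Ifi47 and Iigp1 lie above WT in both TG libraries and below WT in both het libraries, while the libraries of Rsad2 and Ifit3 in the het table overlap.

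Libraries of the same group often differed in these genes by more than the genotypes did. In the WT pair of the het table, library 2 was above library 1 in 35 of the 36 genes, with a median log2 difference of 0.36, beside −0.01 over all genes and 49.2% of all genes higher in library 2. Irf1 was the exception. The GTPases were 0.57 higher there (9 of 9), with Gbp2 at 0.91. In the other groups, library 2 was above library 1 in 28 of 36 genes in the WT pair of the TG table (median 0.15), 25 in TG (0.16) and 28 in het (0.18). The difference between groups was smaller than the largest difference within a group in 28 of 36 genes in TG (77.8%, beside 70.3% of all genes) and in 29 of 36 in het (80.6%, beside 65.4%).

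Markers of other liver cells also differed between these libraries. The 10 Kupffer cell markers all had a lower mean in TG than in WT (median log2 fold change −0.39), and 8 of 10 a higher one in het (median 0.23), with 0 called in either and none at 0. Their summed level was 29912 to 32063 in WT and 19032 to 26240 in TG, and 7376 to 9990 in WT and 8456 to 11773 in het. Within pairs, all 10 were higher in library 2 of TG (median 0.61), of the WT pair of the het table (0.46) and of het (0.50). In the WT pair of the TG table only 3 of the 10 were higher in library 2 (median −0.08), where 28 of the 36 interferon-stimulated genes were higher. The 7 sinusoidal endothelial markers were all below WT in TG (median −0.28, summed level 12124 to 12415 in WT and 9862 to 10194 in TG). In het all 7 were above WT (median 0.38, summed level 2972 to 3292 in WT and 3689.9 to 3720 in het). Of these, 2 were called, Lyve1 and Gpr182, beside 1.44% of all genes. T and NK cell markers, of which 10 of 11 were measured in the TG table, had a median of 0.01 in TG, with summed levels of 351 to 369 in WT and 290.5 to 455 in TG. Of these, 3 were measured beside het, all below WT (median −0.62), with summed levels of 94.3 to 129 in WT and 72.4 to 85.1 in het. Of the B cell markers, 4 of 4 measured lay below WT in TG (median −0.65, summed level 220.3 to 329 in WT and 97.2 to 277 in TG), and 3 of 3 in het (median −0.23, 87.1 to 94.6 in WT and 75.9 to 76.7 in het). Of the neutrophil markers, 3 of 3 measured lay below WT in TG (median −0.79, 163 to 205 in WT and 130.2 to 167 in TG), and 2 of 2 above WT in het (median 0.80, 32.2 to 61.5 in WT and 68.9 to 84.0 in het). Of the dendritic cell markers, 4 of 7 were measured in the TG table (median 0.01) and 2 in the het table (median −0.01) with equal numbers above and below WT. None of these was called, and they rest on few reads. The part of these cells in the levels of interferon-stimulated genes was not tested.

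**Figure D4:**
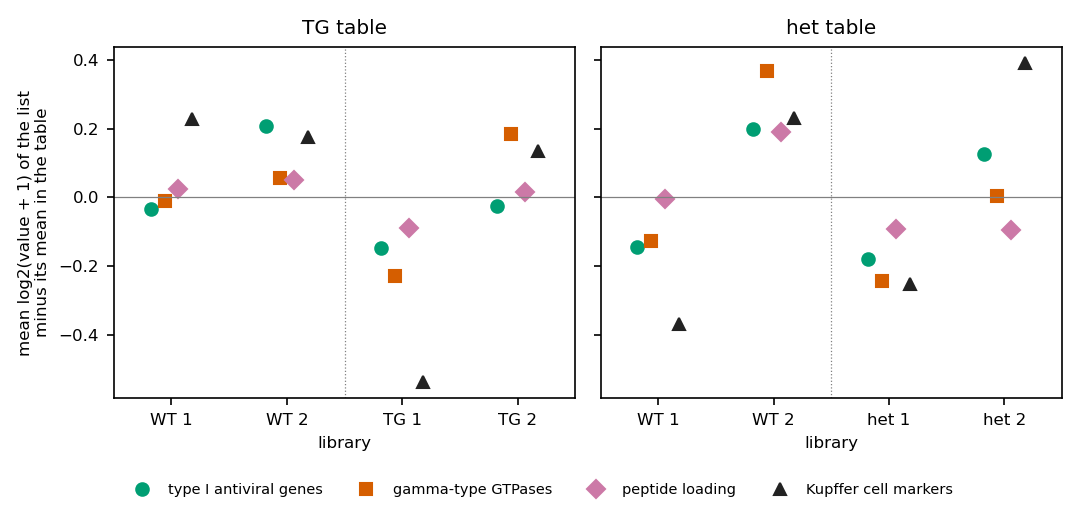
Mean log2(value + 1) of the type I antiviral genes (23), gamma-type GTPases (9), peptide loading genes (3) and Kupffer cell markers (10) in each library, minus the mean of that list over the 4 libraries of its table. All the lists shown are lowest in library 1 of TG and higher in library 2 of TG. In the het table the type I antiviral genes, GTPases and Kupffer cell markers are higher in library 2 of both pairs. The peptide loading genes are higher there in the WT pair only.

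Genes upstream and beside the list gave few differences, and none passed the test in either mutant or in the difference of the effects. Of 12 interferon receptors, kinases and their regulators, 6 lay above and 6 below WT in TG (median 0.01), and 6 above and 5 below of 11 measured in het (0.03). Socs3, a feedback inhibitor of cytokine receptors, was the single one of these with an unadjusted p under 0.05 in TG, with 247 and 175 in WT and 388 and 329.5 in TG and a log2 fold change of 0.78 (limma adjusted p = 0.518). Of the genes of nucleic acid sensing that lead to interferon production, 6 of 14 lay above WT in TG and 7 of 12 in het. The transcription factor Irf3, which turns on interferon beta, had 1054 and 1008 in WT and 725 and 765 in het, with both het libraries lower (log2 fold change −0.47, SE 0.09, limma adjusted p = 0.0512). In the TG table Irf3 had 2554 and 2851 in WT and 3227 and 3035 in TG, and its effects differed by 0.68 (limma adjusted p = 0.0981). Irf5 was at −0.65 in het and the adaptor Traf3 at −0.47 in TG. In the difference of the effects Traf3 was at −0.74 (limma adjusted p = 0.177) and the phosphatase Ptpn6 at −0.49 (adjusted p = 0.259).

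The immunoproteasome replaces 3 catalytic subunits of the proteasome under interferon and makes peptides for MHC class I. These subunits, Psmb8, Psmb9 and Psmb10, all had both het libraries below WT. So did 5 of the 12 genes of the immunoproteasome and class I list, these 3 included, beside 23.7% of all genes. Psmb10 had 922 and 1181 in WT and 717 and 698 in het (log2 fold change −0.56, SE 0.12, limma adjusted p = 0.0823), and Psmb8 and Psmb9 had log2 fold changes of −0.44 and −0.35. In TG, Psmb10, Psmb8 and Psmb9 were at 0.18, 0.16 and −0.30, so that Psmb9 lay on the other side from its partners. Over the 12 genes of the immunoproteasome and class I list, 7 lay above WT in TG (median 0.10) and 6 in het (median −0.01). The effects in TG and het differed by 0.74 for Psmb10, 0.60 for Psmb8 and 0.46 for Erap1, a peptidase that trims peptides for MHC class I (limma adjusted p = 0.151, 0.216 and 0.219).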

How the data were processed

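RNA from whole liver was sequenced in 4 groups of 2 libraries, with a TruSeq kit per the labels' protocols. Tools named in the submitters' processing notes, with no role, are Subread 1.5.2, featureCounts and DESeq2, and the build is mm10/GRCm38. Strand use and the handling of reads shared between genes are not stated there. The deposited values (unit: signal) are gene-level read counts scaled by the authors with 1 factor per library, as read from the values: with a fitted worth of 1 read per library, every value came within 0.001 of a whole read. In the library TG 1 the lowest values alone give this step. In the others the lowest value is several reads or the step lies near 1, so it rests on the fit over all genes, and the recovered reads and totals are estimates. Genes under a mean of 11.2 normalised reads are not listed in the TG table, nor those under 17.8 in the het table.

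Each table was tested with limma 3.58.1 (lmFit, then eBayes with a trend and robust variance; R 4.3.3) on log2(value + 1) of all its genes, with Benjamini-Hochberg adjustment over them and a threshold of 0.05. A fold change is a difference on this log2(value + 1) scale, so it is too small for genes with few reads. To compare the effects of TG and het, all 8 libraries were fitted together and the TG effect minus the het effect was tested. Alternatives were edgeR 4.0.16 and DESeq2 1.42.0 on recovered reads, pseudocounts of 0.5 and 5, TMM scaling, no robust variance, only genes with a mean of 50 or more, a common fit of both tables, a replicate block, and the omission of each library. The fit was also run on simulated counts. Their spread between libraries was set in advance and not taken from these data, so the run does not show which changes the fit would find here.

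The members and lists were chosen with earlier results of these data known. Genes printed with the value of every library were those with an unadjusted p under 0.05, the 2 of highest level per kb in each group of genes and table, and Stat2, Irf9, Irf7, Irf1, Isg15 and Usp18. Of the pathway lists, up to 3 genes of smallest p under 0.05 for each list and comparison were named. Positions and exon lengths came from GENCODE on GRCm38 by symbol, promoters from RefSeq (GRCm38.p6). Proteins were not used here.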

Additional observations from a re-analysis of the deposited data

Results flagged for a closer look

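Ddx58, Ifi47 and Iigp1 are singled out because both TG libraries lay above and both het libraries below the WT pair of their own table. The effect in TG minus the effect in het was 0.65 on the log2 scale for Ddx58, 0.78 for Ifi47 and 0.52 for Iigp1. In the joint fit limma's adjusted p was 0.123, 0.0976 and 0.271, so that none of the 3 differences passed the threshold. Such opposite placing without overlap occurred in 7.23% of all genes measured in both tables, and in 3 of 36 here.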

How the results depend on the processing

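None of the 36 genes was called in TG, in het or in the difference of the effects under any alternative run. The median log2 fold change of the list ranged from −0.22 to −0.016 in TG and from −0.34 to 0.07 in het when single libraries were left out, the remaining library of that group being assumed to vary like the others. The −0.016 in TG and the positive value in het both came from leaving out WT replicate 2. Under the other alternatives the medians stayed between −0.15 and −0.14 in TG and between −0.15 and −0.13 in het. With the replicate number as a block (replicate block) the count of the 36 called was 0 in each comparison and the medians were −0.14 and −0.13. Differences between the libraries of a pair correlated between groups at 0.107 in the TG table and −0.04 in the het table. With 2 pairs a table this does not settle whether libraries of one number share a batch, and the labels give the numbers no meaning. Over all genes, the count called in het was 169, and 87 with edgeR, 289 with DESeq2, 93 without robust variance and 0 in a single fit of 8 libraries; in TG it was 0, and 186 with DESeq2, 25 in the single fit and 146 without TG replicate 2. For the difference it was 51, and 371 with DESeq2. Leaving out single libraries gave 0 to 146 in TG, 61 to 173 in het and 5 to 643 for the difference. With 2 libraries a group, and at most 17748088 reads a library in the het table, small changes of low genes could not be seen. Larger changes of well-measured genes could also fail the test. Ube3a itself had a limma adjusted p of 0.0586 in TG, at a log2 fold change of 2.23. In het it had a limma adjusted p of 0.129, at −0.42.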
